A study of Homo sapiens with 24 samples.

Results

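LINC symbols are given to long intergenic noncoding RNAs, transcripts that lie between protein-coding genes and carry no long open reading frame. The 233 genes described here are those whose RefSeq symbol starts with LINC and a number and that had at least 1 probe well above background on all 4 si-SCRL arrays at 24 h. They were chosen from 588 such genes with a probe on the 24 h array, out of 2312 in the RefSeq table, and 232 of them were annotated as lncRNA. The exception was LINC02210-CRHR1, a readthrough transcript that joins LINC02210 to the corticotropin-releasing hormone receptor gene and is annotated as protein coding.

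RNA came from LNCaP, an androgen-responsive line of luminal prostate cancer cells that was established from a lymph node metastasis. Stealth siRNA duplexes were delivered by electroporation: si-A1 is directed at the lncRNA TAPIR-1, si-A2 at the neighbouring lncRNA TAPIR-2, and si-SCRL is the scrambled control. Each siRNA was studied 24 h and 48 h after transfection in 4 biological replicates, and total RNA was hybridised to 24 one-colour Agilent arrays. The comparison asks which other transcripts move when each TAPIR transcript is targeted, in 1 cell line. At 48 h the arrays of si-A2 numbered 3, since replicate 2 was far dimmer than the rest and was left out.

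LncRNAs act in several known ways: some hold chromatin regulators at nearby promoters, some bind proteins or microRNAs in the cytoplasm, and a few encode short peptides. They are in general transcribed at lower levels than mRNAs and differ strongly between tissues, and many are spliced and polyadenylated like mRNAs. In prostate cells, LINC00963 was described in the passage from androgen-dependent to androgen-independent growth. A lower intensity in these bulk samples cannot tell fewer transcribing cells from less RNA in each cell.

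Where along the genome transcription of a lincRNA begins is given for the 4 members on which the results below turn most, as 300 bases from RefSeq (GRCh38.p14) that span 250 bases before and 50 after the annotated start. Capitals mark exact matches, on either strand, to CCAAT, the box bound by NF-Y, and to TATAAA, the TATA box.
LINC00339, chr1:22024941-22025240, plus strand: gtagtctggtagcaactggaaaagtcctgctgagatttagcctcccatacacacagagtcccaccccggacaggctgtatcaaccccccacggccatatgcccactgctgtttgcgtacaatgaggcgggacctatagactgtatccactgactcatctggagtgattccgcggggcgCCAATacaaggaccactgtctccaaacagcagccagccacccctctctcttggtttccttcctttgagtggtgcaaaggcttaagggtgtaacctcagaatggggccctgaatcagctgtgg
LINC00938, chr12:45727872-45728171, minus strand: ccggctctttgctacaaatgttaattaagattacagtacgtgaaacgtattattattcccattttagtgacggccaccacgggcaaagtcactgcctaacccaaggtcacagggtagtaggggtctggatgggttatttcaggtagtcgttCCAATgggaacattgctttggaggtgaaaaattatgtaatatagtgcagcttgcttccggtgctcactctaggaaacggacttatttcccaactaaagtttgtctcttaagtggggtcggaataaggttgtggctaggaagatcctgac
LINC00839, chr10:42475241-42475540, plus strand: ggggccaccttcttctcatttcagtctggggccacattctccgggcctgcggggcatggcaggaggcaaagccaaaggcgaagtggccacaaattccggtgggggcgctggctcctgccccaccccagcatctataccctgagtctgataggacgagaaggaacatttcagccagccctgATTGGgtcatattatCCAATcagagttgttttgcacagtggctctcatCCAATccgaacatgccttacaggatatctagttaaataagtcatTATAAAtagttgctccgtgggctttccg
LINC01089, chr12:121802897-121803196, minus strand: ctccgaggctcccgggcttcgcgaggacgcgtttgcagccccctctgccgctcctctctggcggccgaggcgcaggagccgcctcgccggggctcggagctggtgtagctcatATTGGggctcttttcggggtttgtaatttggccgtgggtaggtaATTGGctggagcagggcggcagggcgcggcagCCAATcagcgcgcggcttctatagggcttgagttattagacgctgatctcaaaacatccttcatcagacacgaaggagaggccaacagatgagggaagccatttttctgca
LINC00839 held CCAAT on both strands and a TATAAA that lies after the annotated start, at position 23. It also held a match to the p53 decamer, a half-site, that is not capitalised. LINC01089 held CCAAT in both orientations within a GC-rich window (61.0% GC). The LINC00938 promoter had 44.33% GC and that of LINC00339 54.67% GC.

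The threshold of the selection cut through a continuous range of intensities. Mean log2 intensity in the si-SCRL arrays at 24 h ran from 4.26 to 17.31 over the members (median 6.95), with LINC00851 (4.55, 4.15, 4.57 and 3.77), LINC00926 (mean 4.37) and LINC01114 (mean 4.46) just inside. Just outside lay LINC00906, well above background on 3 of the 4 arrays (5.64, 6.43, 4.22 and 5.53), LINC00707 (mean 4.93) and LINC00598 (mean 4.91). In all, 58 LINC genes passed on 3 arrays, 35 on 2, 48 on 1 and 214 on none. The share that passed on all 4 arrays was 39.63% for LINC genes, 47.72% for antisense genes, 73.33% for snoRNA and microRNA host genes and 69.85% for protein-coding genes.

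The luminal markers KLK3, KLK2, TMPRSS2, FOLH1, KRT8, KRT18, HOXB13 and STEAP2 were well above background on every array of both time points, and basal KRT5 and stromal LUM on none. The well-above-background flag was also set on all 12 arrays of 24 h for PTPRC and CD3E (mean log2 intensity 6.96 and 6.04), which mark blood cells, and for PECAM1, CDH5 and VWF (5.80, 7.96 and 7.89), which mark endothelium. At 24 h it was set on 10 arrays for basal KRT14, on 7 for TP63, and on 3, 1 and 2 for stromal COL1A1, COL3A1 and DCN. At 48 h it was set on all 11 arrays for DCN, on 10 for KRT14, on 1 for TP63 and on 0 for COL1A1 and COL3A1. The flag compares a spot with its background on the array only, and the part of other signal in low members was not tested. On the single TAPIR-2 probe of the 24 h array, log2 intensity was 5.09, 4.99, 5.25 and 4.81 with si-SCRL, 4.94, 4.76, 4.68 and 4.20 with si-A1, and 4.71, 3.12, 4.61 and 3.82 with si-A2, where 2 of the 4 arrays were well above background. All 4 si-A2 arrays lay below all si-SCRL arrays (difference -0.97, exact permutation test, two-sided, p = 0.02857, the smallest that 4 against 4 allows), whereas si-A1 differed by -0.39 (p = 0.05714). At 48 h this probe differed from si-SCRL by 0.19 with si-A1 (exact p = 0.8) and by 0.04 with si-A2 (exact p = 0.9429). TAPIR-1 was not analysed here.

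At 24 h the members as a group sat slightly higher after either TAPIR siRNA than after si-SCRL. With si-A1, 174 of 233 members (74.68%) had a positive log2 fold change and their median was 0.18, beside 57.56% and 0.06 over all 35899 genes tested. With si-A2 it was 164 members (70.39%) with a median of 0.10, beside 57.69% and 0.05. These si-SCRL arrays chose the members, so the members' contrasts against si-SCRL at 24 h are a description, and nothing is read from their calls. A gene counted as called when its adjusted p was under 0.01 and its log2 fold change was 0.5 or more in size. All genes tested include array identifiers without a RefSeq symbol, each counted as 1 gene. As a record of the limma fit across all genes, 0.0864% of all genes were called higher and 0.997% lower with si-A1, among them 0 members (24 members, 10.3%, and 12.6% of all genes had an unadjusted p under 0.05). With si-A2, 0.0836% of all genes were called higher and 0.864% lower, among them 1 member, LINC00339, as lower (13 members, 5.579%, and 11.2% of all genes had an unadjusted p under 0.05).

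The shift was not the same on every array. The members' median deviation from the si-SCRL mean was 0.22, 0.02, -0.28 and 0.07 on si-SCRL replicates 1 to 4, 0.08, 0.23, 0.13 and 0.29 with si-A1, and 0.09, 0.13, 0.18 and -0.00 with si-A2. The si-SCRL arrays alone therefore spanned a wider range than the difference between the groups. On slide 1, which held replicates 3 and 4, the members' median with si-A1 was 0.33, and on slide 2 it was 0.04; with si-A2 these were 0.21 and -0.01. Without si-SCRL replicate 3 the medians became 0.07 with si-A1 and -0.02 with si-A2, and without si-SCRL replicate 1 they became 0.26 and 0.18. Leaving out si-A1 replicate 4 gave 0.12 with si-A1, and leaving out si-A2 replicate 3 gave 0.05 with si-A2. The si-SCRL replicate 3 array was the dimmest of the 24 h arrays, with a median processed intensity of 24.4 beside up to 57.2, and the part of brightness in the shift was not tested.

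**Figure D1:**
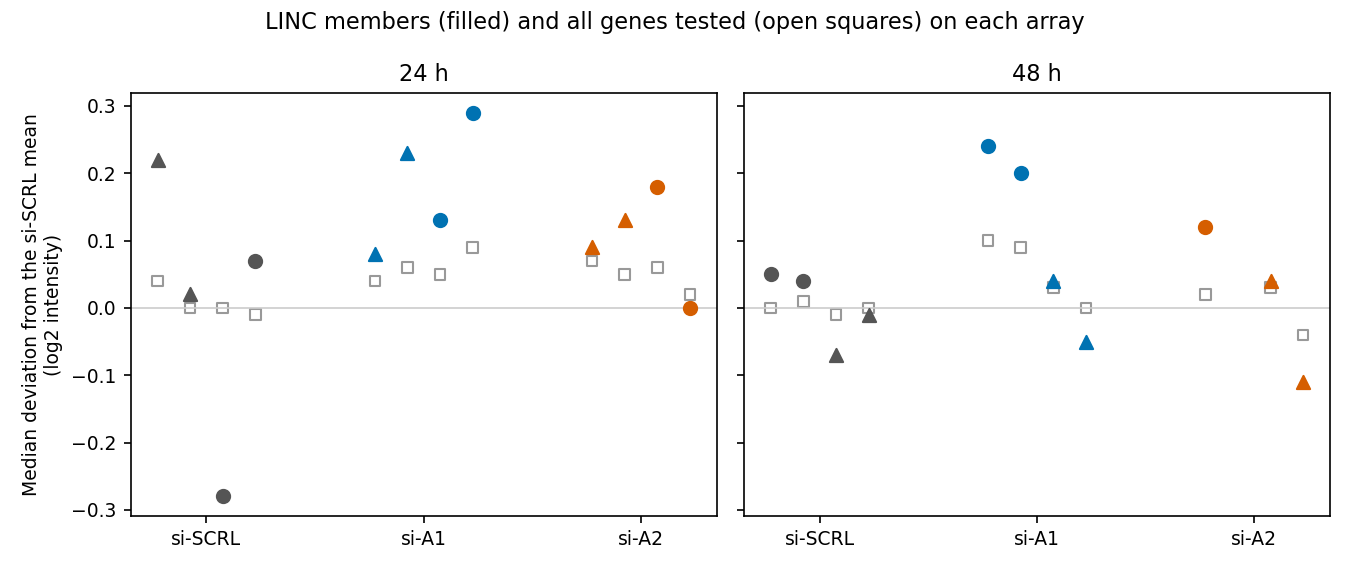
Median deviation of the LINC members (filled) and of all genes tested (open squares) from the si-SCRL mean on each array, in log2 intensity, at 24 h and 48 h; circles are arrays of slide 1 and triangles of slide 2. The si-SCRL arrays of 24 h span -0.28 to 0.22, and at 48 h the si-A1 arrays of slide 1 (0.24 and 0.20) sit above those of slide 2 (0.04 and -0.05).

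At 48 h, where no array had served the selection, more members were again above 0 than below. With si-A1, 170 of 226 members tested (75.22%) were above 0, with a median of 0.12, beside 58.36% and 0.06 over 34162 genes. With si-A2, 149 members (65.93%) were above 0, with a median of 0.06, beside 52.76% and 0.02. Per array, the members' median deviation was 0.05, 0.04, -0.07 and -0.01 with si-SCRL, 0.24, 0.20, 0.04 and -0.05 with si-A1, and 0.12, 0.04 and -0.11 with si-A2. The si-A1 arrays of slide 2 overlapped the si-SCRL arrays, and those of slide 1 did not. Within slides the median was 0.15 on slide 1 and 0.06 on slide 2 with si-A1, and 0.07 and 0.02 with si-A2. The median standard error of a member's fold change was 0.21 at 24 h and 0.13 to 0.14 at 48 h.

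At 48 h members were called with si-A1 and none with si-A2, though of the 10 called only LINC00938 and LINC01968 had an adjusted p under 0.05 between the siRNAs. With si-A1, 10 members were called higher (4.425%, beside 2.98% of all genes) and none lower (4.28% of all genes), and 52 had an unadjusted p under 0.05 (23.01%, beside 30.9%), of which 50 were higher. With si-A2, limma called no member higher or lower (0.105% and 0.565% of all genes); 33 had an unadjusted p under 0.05 (14.6%, beside 18.8%), 24 of them higher. The share of members called higher with si-A1 was near that of all genes, and no member was called in the direction in which most calls over all genes lay. Protein-coding genes of the same fit, selected by the same rule, had 370 called higher and 1204 lower with si-A1 (2.932% and 9.54% of 12621), and antisense genes 6 and 8 (2.564% and 3.419% of 234). Divergent transcripts had 3 called higher (5.455% of 55) and host genes 4 (12.12% of 33), with 0 lower in both. Median log2 fold changes with si-A1 at 48 h were 0.12 for LINC members, 0.10 for antisense genes, 0.08 for divergent transcripts, 0.21 for host genes and -0.02 for protein-coding genes. Medians above 0 were thus found in each of the noncoding classes.

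LINC00938, a lincRNA of chromosome 12 (chr12:45725720-45727921), had the smallest adjusted p of the 10 members called with si-A1. It was called in 12 of 15 alternative settings and when 6 of the 11 arrays were left out in turn. Its log2 intensity was 6.57, 6.37, 6.90 and 6.27 with si-SCRL, 7.22, 7.42, 7.33 and 7.42 with si-A1, and 6.73, 6.70 and 6.67 with si-A2 at 48 h. The si-A1 arrays were tight and lay above all arrays of the other groups. The log2 fold change with si-A1 was 0.82 (SE 0.13, adjusted p = 0.003664), the log2 difference of si-A2 from si-A1 was -0.65 (SE 0.15, adjusted p = 0.03243), and that of si-A2 from si-SCRL was 0.16 (adjusted p = 0.6024). With the replicate number as a block the call with si-A1 remained (adjusted p = 0.009528). The same probe gave 0.34 with si-A1 and 0.18 with si-A2 at 24 h, and the arrays of those groups overlapped si-SCRL there.

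LINC01667 and LINC00839 also separated si-A1 from si-SCRL completely at 48 h. For LINC01667, on chromosome 21, log2 intensity was 8.61, 9.10, 8.98 and 8.59 with si-SCRL, 9.39, 9.42, 9.55 and 9.59 with si-A1, and 8.90, 9.20 and 9.23 with si-A2. The fold change with si-A1 was 0.67 (log2, SE 0.14, adjusted p = 0.009899), and a second, dimmer probe gave a difference of 0.72. LINC00839, which has been described in neuroblastoma and other tumours, had 6.54, 7.08, 7.17 and 7.40 with si-SCRL, 7.45, 7.70, 8.10 and 8.09 with si-A1, and 7.03, 7.80 and 8.12 with si-A2. Its si-A1 arrays lay above every si-SCRL array while those of si-A2 overlapped both groups. The log2 fold change with si-A1 was 0.79 (SE 0.15, adjusted p = 0.007693). At 24 h the called LINC00839 probe differed by 0.00 with si-A1 and by 0.25 with si-A2. A brighter probe stood for the gene at that time, with differences of 0.34 and 0.26. LINC00877 separated as well, from 4.18, 4.78, 5.18 and 5.27 with si-SCRL to 5.33, 5.41, 5.95 and 5.62 with si-A1 (log2 fold change 0.73, SE 0.15, adjusted p = 0.009488), although its other probe differed by 0.02. That other probe had made LINC00877 a member. The called probe was well above background on only 2 of 4 si-SCRL arrays at 24 h.

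The other 6 called members overlapped between si-SCRL and si-A1, and their levels differed between slides. LINC01968 had the largest fold change of the 10, from 6.87, 6.28, 8.37 and 8.19 with si-SCRL to 7.58, 7.79, 9.33 and 9.26 with si-A1, a log2 fold change of 1.06 (SE 0.20, adjusted p = 0.007074). In each group its replicates 1 and 2 (slide 1) were low and its replicates 3 and 4 (slide 2) were high. Its other probe, which had made it a member, differed by -0.46. The called probe was well above background on only 3 of 4 si-SCRL arrays at 24 h. With si-A2 the called probe gave 6.14, 8.70 and 8.78, which was lower than si-A1 in the fit (log2 difference -0.93, SE 0.22, adjusted p = 0.03993). LINC01004 went from 4.87, 5.09, 5.91 and 5.91 to 5.88, 5.84, 6.82 and 6.65 (0.85, SE 0.15, adjusted p = 0.004622), and LINC00581 from 6.80, 7.27, 7.67 and 7.93 to 7.90, 8.03, 8.53 and 8.28 (0.77, SE 0.15, adjusted p = 0.007141). The remaining members, LINC01091 (0.67), LINC02370 (0.64) and LINC00313 (0.59), showed the same layout. Other probes, well above background on all arrays of 48 h, differed by 0.10 and 0.35 for LINC01091 and by 0.25 for LINC00313. The called LINC02370 probe was well above background on only 3 of 4 si-SCRL arrays at 24 h, and a brighter probe had made LINC02370 a member.

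Levels were higher on slide 2 than on slide 1 by 0.60 to 1.89 on the log2 scale for 8 of the 10 called members, and by 0.05 for LINC00938 and 0.12 for LINC01667. Of all genes tested 8.992%, and of the members 17 of 226 (7.522%), were higher on slide 2 by at least 0.60. That value is the smallest difference among those 8 called members, so they pass it by construction. Within each slide si-A1 lay above si-SCRL for each of the 10 members, a description only, since a fit with the slide term had called them. The sign was the same on both slides for 68.08% of all genes and 149 of 226 members (65.93%). The calls rest on the slide term: without it 1 of the 10 was called, with the slide as a random block 2, and with the replicate number as a block in place of the slide 2, LINC00938 and LINC00839. Over all genes the calls went from 2480 to 1259, 1873 and 1818 under these settings. The count also depended on single arrays: it was 0 without si-A1 replicate 1, 2 or 3, 1 without si-SCRL replicate 3 or 4, 2 without si-A1 replicate 4, 3 without si-A2 replicate 3, 4 without si-SCRL replicate 2 and 5 without si-SCRL replicate 1. The calls over all genes fell as well, to between 1282 and 2087 without 1 of these arrays. With normexp background correction the log2 fold changes were smaller and 5 of the 10 fell below 0.5, LINC00313 (0.48), LINC01004 (0.40), LINC01091 (0.36), LINC02370 (0.33) and LINC00877 (0.30), and were not called.

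**Figure D2:**
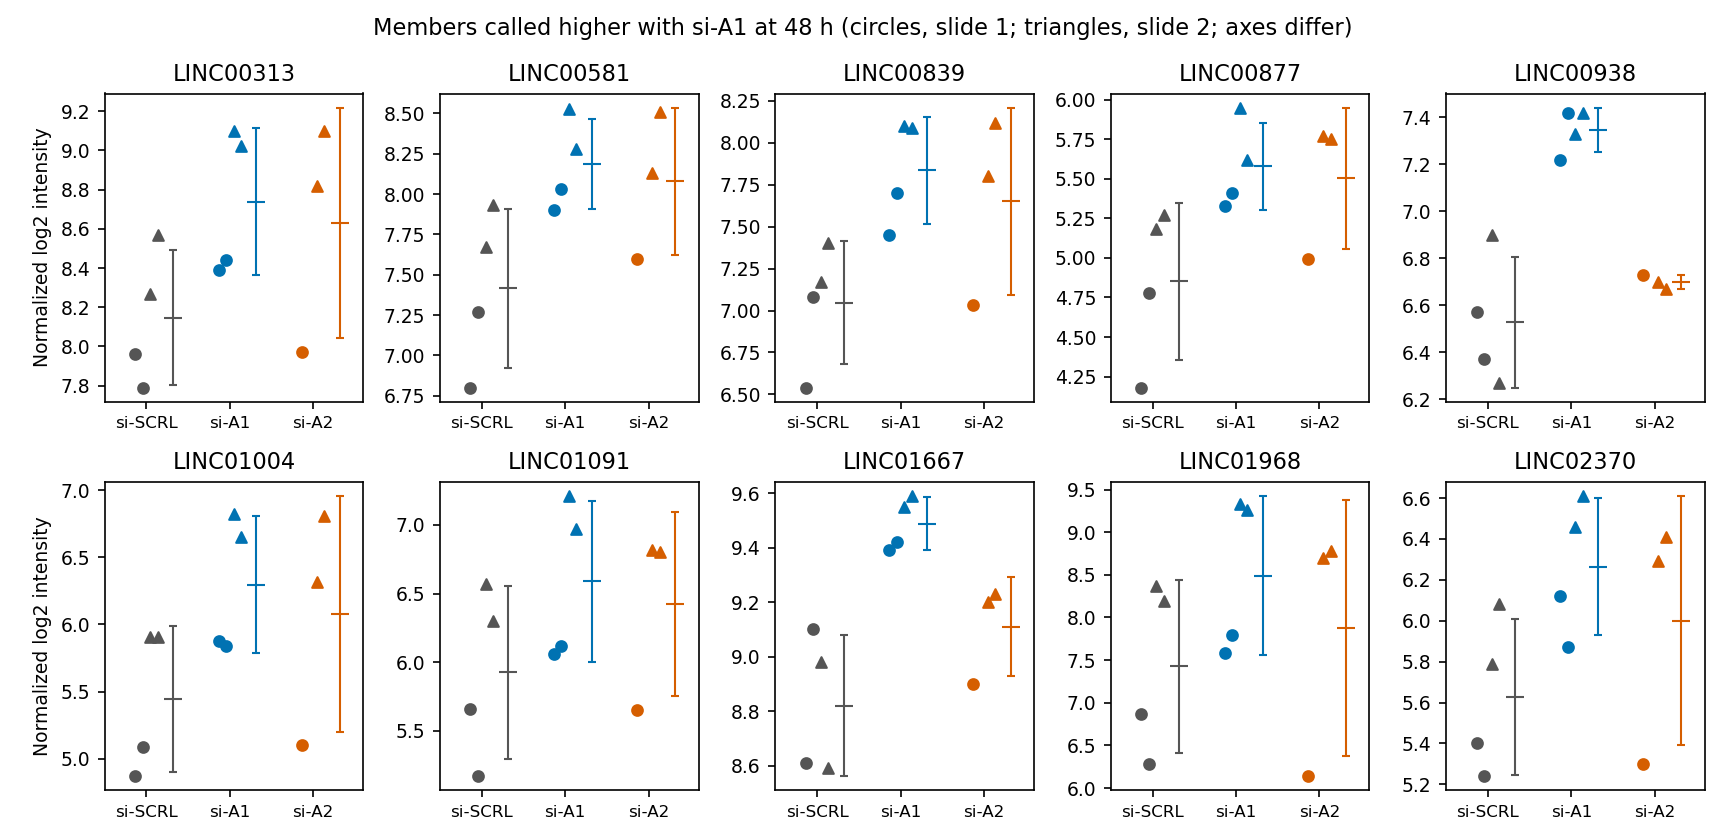
Normalized log2 intensity at 48 h of the 10 members called higher with si-A1, each array as a point (circles, slide 1; triangles, slide 2) with the group mean ± SD at its right; each panel has its own axis. The slides differ by 0.05 in LINC00938 and 0.12 in LINC01667, whereas in LINC01968 the arrays of slide 2 lie 1.89 above those of slide 1 on average.

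Other members differed from si-SCRL by less with si-A1 at 48 h. LINC00665, whose RNA is described as encoding a short peptide, went from 9.22, 9.28, 9.44 and 9.38 with si-SCRL to 9.73, 9.59, 9.80 and 9.91 with si-A1, with no overlap. Its log2 fold change of 0.42 (SE 0.08, adjusted p = 0.00551) was under the 0.5 that a call required. LINC00662 went from 6.74, 7.11, 7.22 and 7.09 to 7.74, 7.64, 7.31 and 7.40 (0.48, SE 0.13, adjusted p = 0.03756). LINC00685, which lies 349 bp from GTPBP6 in head-to-head orientation, differed by 0.39 with si-A1 (adjusted p = 0.03678) and by 0.07 with si-A2 (adjusted p = 0.802). LINC00960 was higher than si-SCRL on all arrays of both siRNAs (0.26, adjusted p = 0.05728, and 0.24, adjusted p = 0.1981), and LINC00642 on all arrays of si-A2 (0.33, adjusted p = 0.2103), without passing the test. At an adjusted p under 0.05 and the same fold, 22 of 226 members (9.73%) were called with si-A1 at 48 h, beside 12.9% of all genes.

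Among decreases, LINC00674 lay below si-SCRL on all arrays of both siRNAs at 48 h. Log2 intensity was 7.54, 7.42, 7.73 and 7.48 with si-SCRL, 7.23, 7.24, 7.28 and 7.30 with si-A1, and 6.98, 7.28 and 7.29 with si-A2. The log2 fold changes were -0.28 with si-A1 (adjusted p = 0.05575) and -0.38 with si-A2 (adjusted p = 0.0681), and neither passed the test. Its nearest protein-coding neighbour in the promoter table, KPNA2, an importin that carries proteins into the nucleus, lay 65820 bp away on the same strand and was called lower at 48 h (log2 fold change -1.25 with si-A1, adjusted p = 0.0003454, and -1.17 with si-A2, adjusted p = 0.005387). LINC00235, 305 bp from CAPN15 in head-to-head orientation, had 5.35, 5.19, 5.40 and 5.54 with si-SCRL and 5.05, 5.04 and 5.02 with si-A2 (-0.37, adjusted p = 0.2029). CAPN15 itself differed by -0.55 with si-A1 (adjusted p = 0.004002) and by -0.43 with si-A2 (adjusted p = 0.05528).

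LINC00339 had the largest decrease from si-SCRL of any member at 24 h. It lies on chromosome 1 (chr1:22025191-22031224) close to CDC42, whose expression it has been reported to influence in bone and endothelial cells. On its brightest 24 h probe, log2 intensity was 7.89, 8.13, 8.07 and 7.55 with si-SCRL, 7.68, 7.50, 7.68 and 7.14 with si-A1, and 6.90, 6.65, 6.59 and 6.52 with si-A2. The si-A2 arrays were below every array of the other groups, and si-A1 overlapped si-SCRL. The log2 fold change with si-A2 was -1.25 (SE 0.16) against si-SCRL, as a description, and -1.25 and -1.24 within slides 1 and 2. Against si-A1, a contrast that the selection did not use, the difference was -0.84 (SE 0.16, adjusted p = 0.03677), which missed the call threshold. The fold change against si-SCRL ran from -1.35 to -1.15 when each array was left out in turn, and as the mean over its probes it was -0.72.

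The probes of LINC00339 did not move together. Of the other probes at 24 h, A_21_P0010697 gave 5.79, 5.97, 6.01 and 5.92 with si-SCRL and 5.01, 4.81, 5.23 and 4.85 with si-A2, a difference of -0.94. A_21_P0010695 differed by 0.02. At 48 h A_21_P0010695 was the brightest probe on the newer array and differed from si-SCRL by 0.37 with si-A1 (adjusted p = 0.2549) and by 0.39 with si-A2 (adjusted p = 0.3727). Another probe of the 48 h array, A_22_P00003858, went from 5.54, 5.30, 5.50 and 5.13 with si-SCRL to 3.63, 4.32 and 4.84 with si-A2. Its si-A2 arrays lay below all si-SCRL arrays (difference -1.10, exact permutation test, two-sided, p = 0.02857, the smallest possible, adjusted over 6 tests of the gene's probes 0.1714), with 2 of the 3 well above background. With si-A1 that probe gave 4.82, 5.15, 4.88 and 5.24 (difference -0.35, exact p = 0.08571). Which transcript each probe detects is not given in the sources used here. The nearest protein-coding gene in the promoter table, CELA3A at 23534 bp, differed by 0.08 with si-A2 at 24 h.

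**Figure D3:**
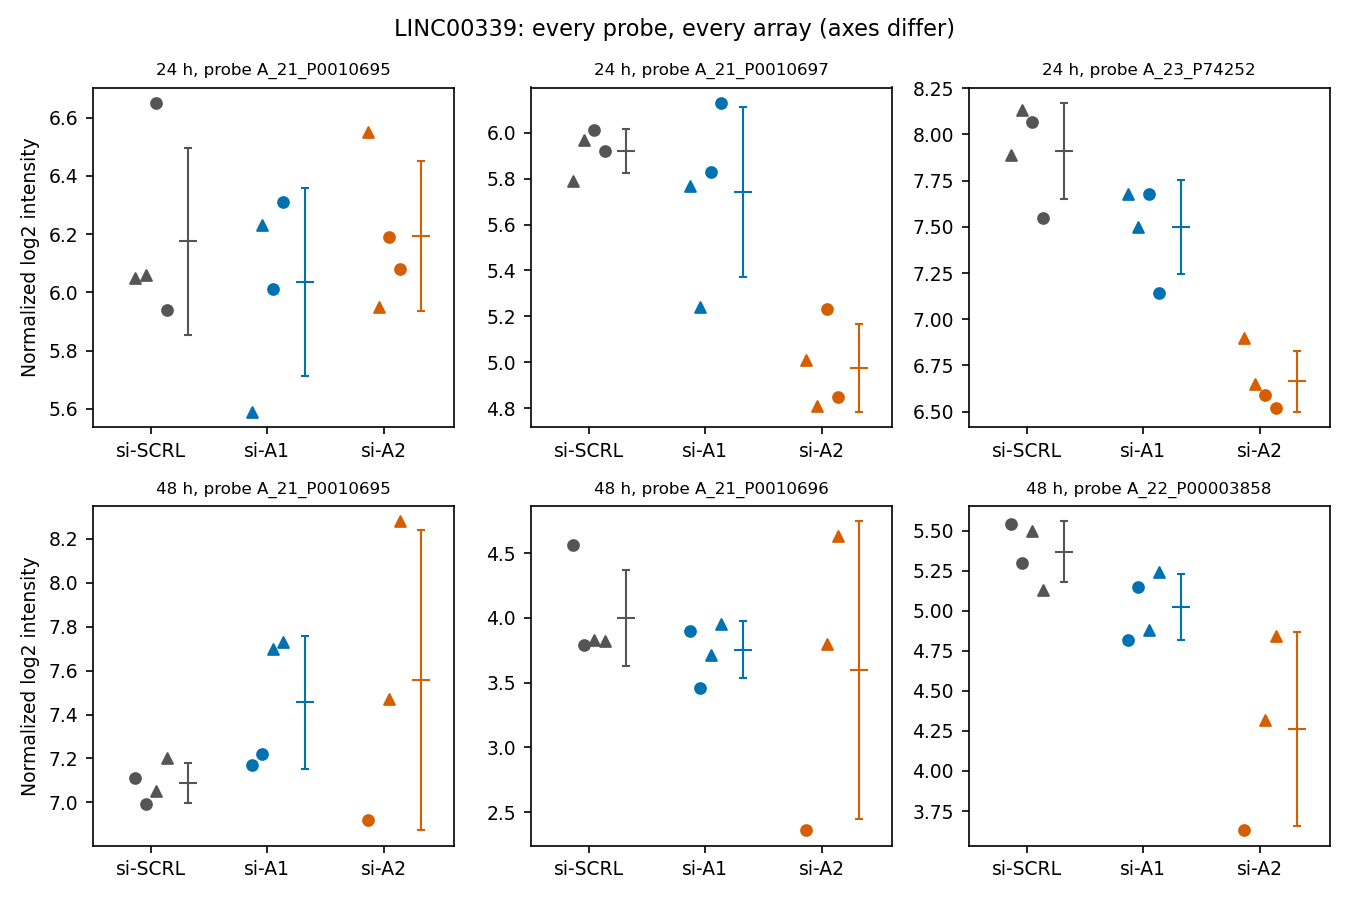
Normalized log2 intensity of LINC00339 on each of its probes at 24 h (top) and 48 h (bottom), each array as a point (circles, slide 1; triangles, slide 2) with the group mean ± SD at its right; each panel has its own axis. With si-A2, A_23_P74252 and A_21_P0010697 at 24 h and A_22_P00003858 at 48 h lie below si-SCRL, by 1.25, 0.94 and 1.10 on average, and A_21_P0010695 does not.

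The siRNAs were also compared with each other. At 24 h, 76 members were higher and 157 lower with si-A2 than with si-A1 (median -0.08, beside -0.01 over all genes). In limma no member was called in either direction (0.234% of all genes were called higher and 0.106% lower), and the 12 members with an unadjusted p under 0.05 (5.15%, beside 10.8%) were all lower with si-A2. At 48 h, 76 were higher and 150 lower (median -0.07, beside -0.04); none was called higher (1.24% of all genes) and 1 was called lower (0.615%), with 24 at an unadjusted p under 0.05 (10.62%, beside 19.5%), 22 of them lower. The share of members that passed was below the background in both. The median at 24 h was -0.01 without si-A1 replicate 4, and at 48 h -0.03 without si-A2 replicate 4.

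The member called was LINC01089 (chr12:121795267-121802946), also known as LIMT and described as a restraint on migration of breast cancer cells. At 48 h its log2 intensity was 7.42, 7.61, 7.68 and 7.65 with si-SCRL, 7.69, 7.54, 7.82 and 7.81 with si-A1, and 7.06, 7.31 and 7.23 with si-A2. All si-A2 arrays lay below all others. The difference between si-A2 and si-A1 was -0.55 (log2, SE 0.09, adjusted p = 0.007451), with -0.56 and -0.55 on slides 1 and 2. Against si-SCRL it was -0.42 with si-A2 (adjusted p = 0.03243) and 0.13 with si-A1 (adjusted p = 0.3217). At 24 h, on another probe, si-A1 gave 7.30, 7.51, 7.25 and 7.38 and si-A2 gave 6.79, 6.77, 7.02 and 6.83, without overlap (-0.51, SE 0.15, adjusted p = 0.1586). That other probe overlapped at 48 h, with 7.11, 7.14, 6.98 and 6.94 for si-A1 and 7.06, 6.73 and 6.43 for si-A2. The call at 48 h did not hold with the replicate number as a block (-0.54, adjusted p = 0.02788) or as the mean over its probes (-0.40, adjusted p = 0.03187). It was also lost without the slide term (adjusted p = 0.05246), with only the 2 groups in the fit (adjusted p = 0.02744), with normexp background correction (-0.42), at a log2 fold change of at least 1 and with the dim array (-0.05), so that it held in 7 of 14 alternative settings. With arrays left out in turn it held in 1 of 11 fits, the one without si-SCRL replicate 2.

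LINC02210, at the start of the readthrough locus on chromosome 17, was also lower with si-A2 than with si-A1 at 48 h. It gave 5.91, 6.05, 6.24 and 5.89 with si-SCRL, 6.38, 6.41, 6.14 and 6.40 with si-A1, and 5.82, 5.58 and 5.75 with si-A2. The difference between the siRNAs was -0.61 (SE 0.12, adjusted p = 0.02072), past 0.05 but not past the call threshold. At 24 h it was -0.51 (adjusted p = 0.2965) with overlapping arrays. LINC01963 gave 7.28, 7.20, 7.38 and 7.03 with si-A1 and 6.30, 6.21, 6.89 and 6.89 with si-A2 at 24 h, without overlap. The difference was -0.65 at 24 h (adjusted p = 0.1431) and -0.18 at 48 h (adjusted p = 0.5934). LINC00929 differed by -1.14 at 24 h with a standard error of 0.44 (adjusted p = 0.3455) and by 0.08 at 48 h on another probe (adjusted p = 0.7388). Of members that were higher with si-A2 on all arrays at 24 h, LINC01000 differed by 0.22 (adjusted p = 0.6606) and LINC00630 by 0.16 (adjusted p = 0.6752).

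**Figure D4:**
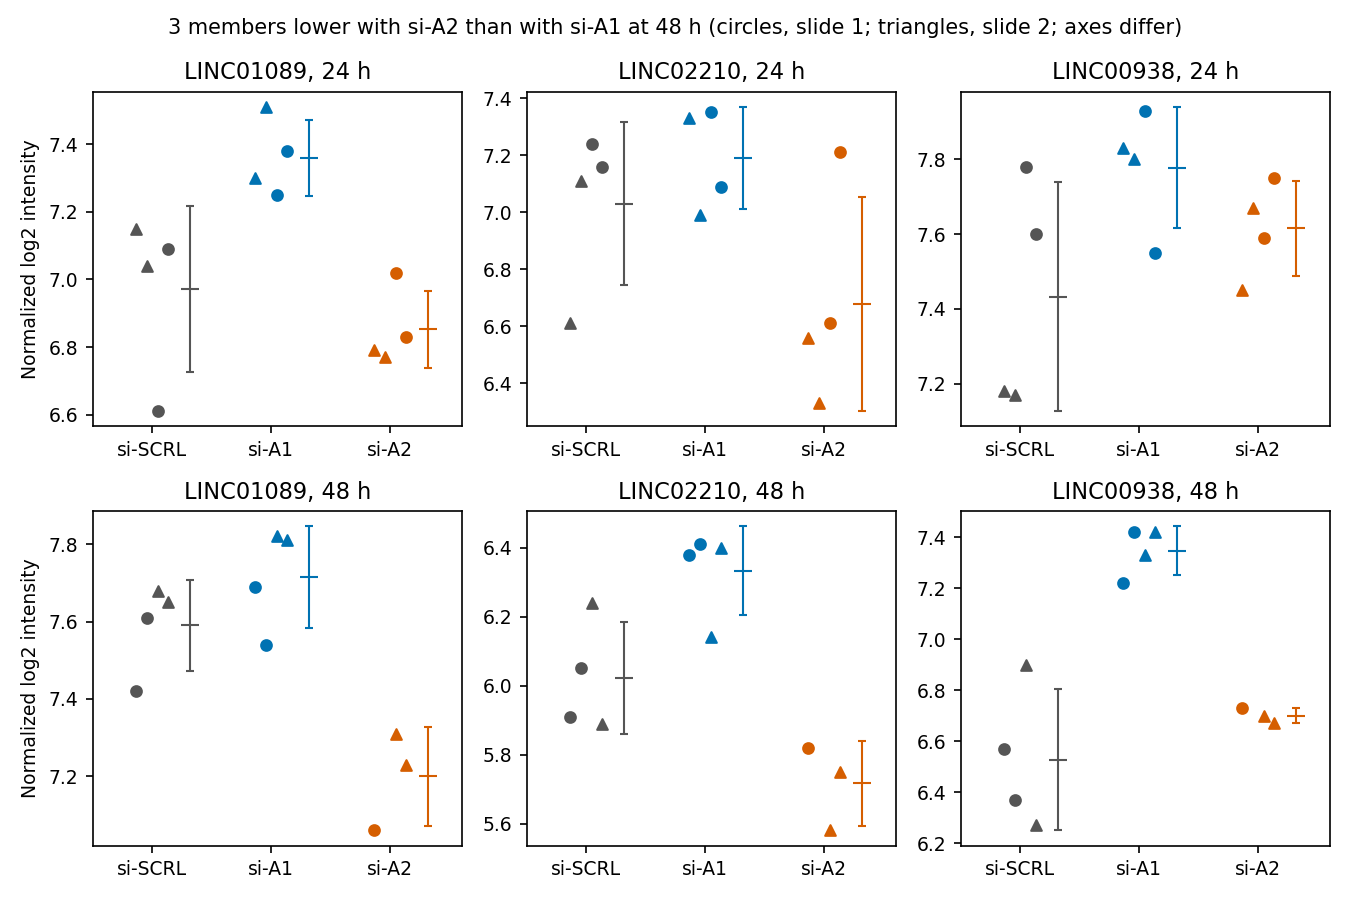
Normalized log2 intensity of LINC01089, LINC02210 and LINC00938 at 24 h (top) and 48 h (bottom), each array as a point (circles, slide 1; triangles, slide 2) with the group mean ± SD at its right; each panel has its own axis. At 48 h the si-A2 arrays of each of the 3 lie below all si-A1 arrays, by 0.55, 0.61 and 0.65 on average in the fit.

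Some members with large shifts at 24 h are given as descriptions. LINC00667, listed here for its described role in tumours, had 5.91, 6.27, 5.83 and 6.39 with si-SCRL and 6.88, 6.83, 6.93 and 6.91 with si-A1 (0.79, SE 0.17). At 48 h another, brighter probe differed by 0.11 with si-A1 (adjusted p = 0.4261). LINC02210-CRHR1 went from 7.78, 7.04, 7.85 and 7.10 to 6.41, 6.61, 6.53 and 6.60 with si-A1 (-0.91, SE 0.21) and 7.02, 6.80, 6.56 and 6.66 with si-A2 (-0.68), while a brighter probe at 48 h differed by 0.09 and -0.14. LINC00592 went from 5.84, 4.90, 5.18 and 4.80 to 3.79, 4.21, 4.55 and 4.43 with si-A1 (-0.93, SE 0.27), and at 48 h, on another probe, differed by 0.45 (adjusted p = 0.0983). Each of these members thus had another probe and another value at 48 h. At 24 h LINC00685 differed by 0.41 and LINC01114 by 0.59 with si-A2, LINC00630 by -0.11 with si-A1, LINC00518 by 0.68 and LINC00092 by 0.64 with si-A1, and LINC00933 by -0.73 and LINC02894 by -0.94 with si-A2. LINC02894 exceeded background clearly on only 1 array of si-A2.

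Single arrays set the values of a few well-known members. LINC00673, a lncRNA described as raised in several cancers, read 4.98 on si-SCRL replicate 1 at 24 h and 8.97 to 9.59 on the other si-SCRL arrays, so that its difference of 1.23 with si-A1 had a standard error of 0.80. LINC00958 read 9.51, 9.21, 6.92 and 10.08 with si-SCRL and 9.93 to 10.24 with si-A1 (1.15, SE 0.55). At 48 h the same members differed by 0.39 (adjusted p = 0.2822) and -0.15 (adjusted p = 0.7038).

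Of 30 LINC genes listed for a role in cancer or in prostate, 21 had a probe and 15 were members. LINC00339, LINC00839 and LINC01089 are described above. LINC00963 was bright on every array, from 15.47 to 16.11 with si-SCRL at 24 h, and differed at 48 h by -0.10 with si-A1 (adjusted p = 0.5892) and 0.03 with si-A2 (adjusted p = 0.9258). LINC01088 differed by -0.04 and -0.05 at 48 h, and LINC00467, whose RNA is described as encoding a short peptide, by -0.05 and -0.09. LINC00847 (0.14 and -0.09), LINC00342 (0.03 and -0.17) and LINC02381 (-0.06 and -0.11) had adjusted p-values of 0.4202 or more. LINC00511 was not tested at 48 h.

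The contrasts of both time points were set side by side as a description, since the si-SCRL arrays of 24 h had chosen the members. With si-A1, 148 of 226 members (65.49%) had the same sign at 24 h and 48 h, beside 64.08% of all genes, and their log2 fold changes correlated with r = -0.01 across members and 0.53 across all genes. With si-A2 the same sign was found for 138 members (61.06%, beside 62.26%) with r = 0.16 (0.46 across all genes), and for si-A2 against si-A1 for 116 (51.33%, beside 61.17%) with r = -0.10 (0.31). Over the 160 members with the same probe at both times, r was -0.01, 0.21 and -0.18. These correlations are across genes, which are not independent replicates, and the time points were measured on different array versions. Of members with 2 probes at 48 h, 39 of 64 had the same sign on both with si-A1 (r = 0.01), and 36 with si-A2 (r = 0.30).

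**Figure D5:**
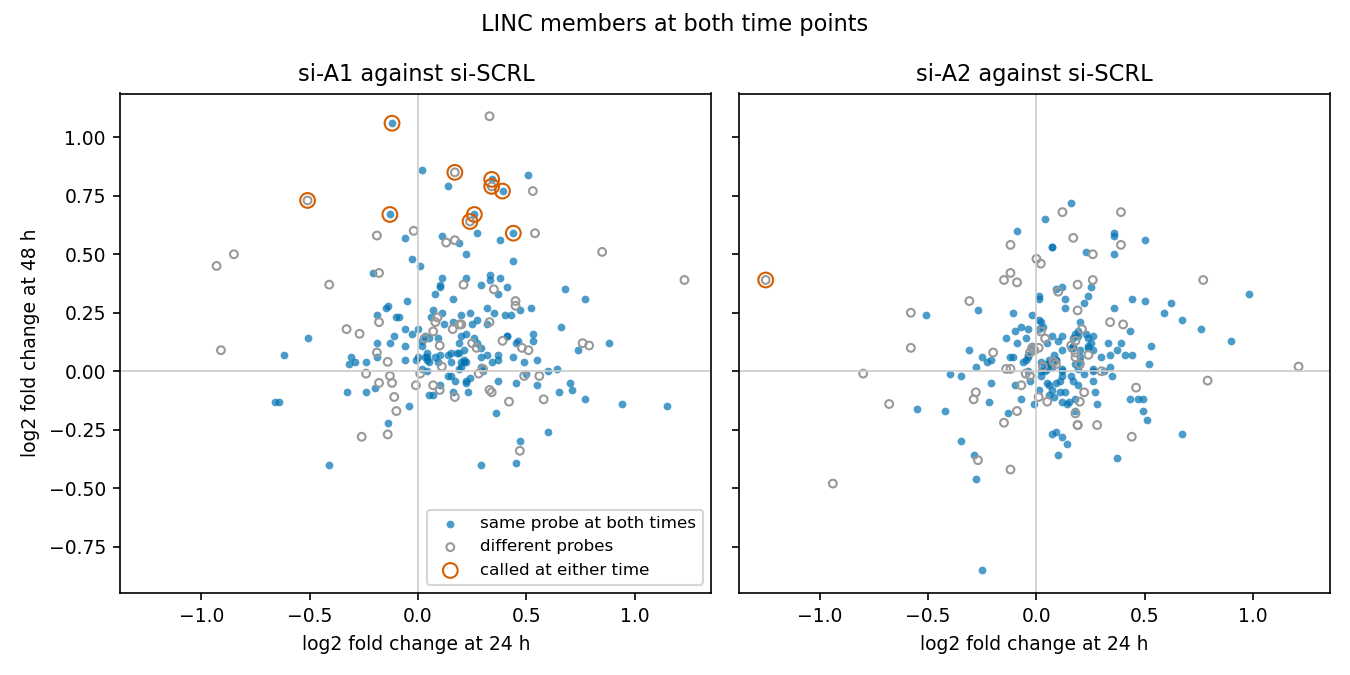
Log2 fold change of each member at 24 h (horizontal) and 48 h (vertical) for si-A1 and si-A2 against si-SCRL; filled points had the same probe at both times, open grey points different probes, and orange rings mark members called at either time. The clouds lie mostly right of and above 0 without a slope (r = -0.01 and 0.16), and LINC00339 stands alone at -1.25 in the si-A2 panel.

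Chromosomes 1 and 2 held the most members (24 each). Of 12 LINC genes within 5 Mb of TAPIR-2 on chromosome 2, 1 was a member, LINC01304, at 2.33 Mb. Its log2 intensity was 6.70, 7.10, 6.49 and 6.80 with si-SCRL, 7.44, 7.13, 6.87 and 6.62 with si-A1, and 7.31, 7.02 and 6.82 with si-A2 at 48 h, with overlapping groups. It differed by 0.25 with si-A1 (adjusted p = 0.268) and by 0.35 with si-A2 (adjusted p = 0.2554), and at 24 h by 0.24 and 0.09.

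A promoter was found in the RefSeq table for 174 members. The nearest protein-coding start among those in the table was a median of 89656 bp away, beside 132508 bp for 1406 other LINC genes, and 5 members (2.874%, beside 1.28%) had such a start head to head within 1 kb. With si-A1 at 48 h, 59 of 129 members (45.74%) had a fold change of the same sign as that neighbour, and with si-A2 58 (44.96%). The members' median GC share was 52.67%, beside 48.67% for LINC genes with a probe that were not members and 62.67% for protein-coding genes. CpG-rich promoters (GC of at least 55% and observed over expected CpG of at least 0.65) made up 21.84% of members, 11.72% of the other LINC genes with a probe and 57.17% of protein-coding genes. Of the members, 37.36% held CCAAT (35.7% of all 27305 promoters), 20.11% TTTGAA or TTCGAA, the cell cycle homology region (16.62%), 4.023% TTCCCGC, an E2F core (6.563%), 12.07% TATAAA (11.95%) and 4.598% the p53 decamer (6.541%). Each motif was searched on both strands, as exact letters except for the decamer, and a match describes the sequence and is no evidence of binding. Of the 12 members called in any comparison 10 had an entry (LINC00581 and LINC01004 had none), and 6 of these held CCAAT.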

How the data were processed

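Total RNA of LNCaP cells was labelled with Cy3 and hybridised to Agilent SurePrint G3 arrays, a different array version at 24 h and at 48 h, so time and version cannot be told apart. The authors scanned the arrays with Feature Extraction, and the deposited files hold, per spot, the processed intensity (background-subtracted and detrended within the array), the median signal and flags. Per the labels, the authors made a table of quantile-normalized log2 values with R 3.4.3 and limma 3.34.8, which was used here as an alternative. The number of arrays limits the precision.

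Here the processed intensity of each time point was log2-transformed and quantile-normalized, and limma 3.58.1 in R 4.3.3 was fitted to all 3 groups with the slide as an additive term. Probes above the mean plus 3 SD of 308 negative control spots on at least 3 arrays were kept, and the brightest probe stood for a gene (35899 genes at 24 h, 34162 at 48 h). The authors also discarded probes that map to several genomic regions, a filter that was not applied here. Whether such probes are among those of the called members was not tested. P-values were adjusted by Benjamini-Hochberg over all genes tested. Symbols came from the RefSeq table through the accessions of the arrays, which named 57.38% of the probes at 24 h and 53.44% at 48 h. Replicate 2 of si-A2 at 48 h was left out as dim.

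The members and lists were chosen with earlier results of these data known. Genes described are members called in any comparison, in each comparison the 3 largest increases and decreases among members whose arrays did not overlap, and members of a list of LINC genes with a described role in cancer or prostate. A Y-linked member chosen by this rule is not described, and some markers and 1 motif are not reported here. Slide position was read from the file headers, and each slide held all 3 siRNAs. Deviations of arrays with the same replicate number correlated with r = 0.25 to 0.45 at 48 h and -0.16 to 0.15 at 24 h. The reported fit holds the slide and does not pair arrays by replicate number, which was tried as an alternative. The exact permutation tests use neither. Arrays of different number on the same slide correlated with r = 0.13 to 0.40 at 48 h. After removing the slide the range at 48 h was 0.03 to 0.14 for the same number and -0.14 to -0.03 for different numbers on the same slide. Arrays of the same number thus stayed more alike at 48 h, which the reported fit does not model.

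Alternatives were scaling to the 75th percentile, normexp background correction (offset 50, on the median signal, as the mean signal was not used here), the authors' log2 values, other slide and replicate terms, 2 groups only, filters on dim probes and on an interquartile range of 0.5, the mean over probes, other thresholds and member rules, the dim array included, and each array left out. The fit was tested on simulated data with 100 genes changed by a log2 fold change of 1: it called 5 at 24 h among 35856 genes and 45 at 48 h among 33906. Of 100 genes changed by 0.5, the fold at which a call began, it called 0 at 24 h and 1 at 48 h. The simulation changed fewer genes than the reported fit called with si-A1, which makes the adjustment of p stricter. These rates therefore do not measure the sensitivity of the reported fit.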

Additional observations from a re-analysis of the deposited data

Results flagged for a closer look

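A group of 4 arrays was examined for a single array far from the other 3 (gap over range, Dixon's 95% value). Of 201 groups of named members 14 (6.965%) held such an array, and chance alone marks about 1 group in 20. In the si-SCRL group at 24 h, replicate 1 read 4.98 for LINC00673 (others 8.97 to 9.59) and 8.19 for LINC00960 (7.56 to 7.65), and replicate 2 read 5.91 for LINC00642 (4.90 to 4.98) and 15.47 for LINC00963 (16.01 to 16.11), all as log2 intensity. Replicate 3 of that group, the dimmest array of 24 h, gave 3 of the 14, with 10.20 for LINC00467 (9.33 to 9.45), 13.87 for LINC01088 (15.14 to 15.35) and 8.40 for LINC02370 (9.10 to 9.23). With si-A1 at 24 h, LINC00877 read 4.56 on replicate 3 (4.04 to 4.09) and LINC01000 7.93 on replicate 2 (8.09 to 8.11), and with si-A2 LINC00685 read 6.12 on replicate 1 (5.61 to 5.66). At 48 h, LINC00592 read 6.59 on si-SCRL replicate 3 (others up to 7.03), LINC01963 6.90 on si-SCRL replicate 2 (6.28 to 6.36), and on si-A1 replicate 3 LINC02210 read 6.14 (6.38 to 6.41) and LINC02894 4.21 (4.64 to 4.66). The cause was not tested for any of these arrays.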

How the results depend on the processing

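At 24 h and an adjusted p under 0.05, 1 member (0.429%) was called for si-A1 against si-SCRL, beside 2.13% of all genes. For si-A2 against si-A1 it was 1 member (0.429%), beside 1.22%. For si-A2 against si-SCRL at 24 h the count was 0 with only the 2 groups in the fit, with an interquartile range filter or with the mean over probes. Over all genes these settings gave 153, 225 and 360 calls. The count was 0 to 1 when each array was left out. At 48 h, si-A1 against si-SCRL gave 1 call with no slide term, 2 with the slide as a random block, 2 with the replicate block, 5 with the mean over probes, 1 at a log2 fold change of at least 1, 22 at an adjusted p under 0.05, 0 with the dim si-A2 array and 0 to 10 with each array left out, beside 1259, 1873, 1818, 2468, 863, 4411 and 27 calls over all genes under the first 7 of these settings and 2480 as reported. With normexp background correction it gave 7 calls (1642 over all genes), and 5 of the 10 reported calls ended. For si-A2 against si-SCRL the count was 1 at an adjusted p under 0.05 (0.442%, beside 3.04% of all genes). For si-A2 against si-A1 it was 6 at an adjusted p under 0.05 (2.65%, beside 5.03% of all genes) and 0 to 1 with each array left out. It was 0 with no slide term, with the replicate block, with only the 2 groups, with the interquartile range filter, with the mean over probes, at a log2 fold change of at least 1 and with the dim array. Over all genes these settings gave, in this order, 288, 297, 111, 539, 649, 317 and 0 calls. The filter on the interquartile range, which keeps the more variable members, moved the 48 h medians to 0.33 (si-A1 against si-SCRL) and -0.18 (si-A2 against si-A1), and the dim array moved that of si-A2 against si-SCRL to -0.07. With each array left out, the share of members with the same sign at both times was between 58.85 and 67.26% in the si-A1 comparison with si-SCRL, and between 42.92 and 54.87% when the siRNAs were compared. With the dim array these shares were 50% for si-A2 against si-SCRL and 59.65% for si-A2 against si-A1, and with the interquartile range filter 73.68% for si-A2 against si-SCRL. With the dim array at 48 h, si-A2 against si-SCRL turned to 0.08 for LINC01089, -0.77 for LINC00642 and -0.18 for LINC00960, and LINC00929 turned from -1.14 to 0.34 for si-A2 against si-A1 at 24 h under the interquartile range filter, which changed its probe. Of the named members' values under alternative settings, 439 kept direction and side of the threshold, 72 lost a call, 4 gained one and 4 turned. With each array left out, 328 kept both, 95 lost a call and 1 gained one. Only a reported call could be lost, and the values that kept both include those of members never called. These counts therefore do not give the share of calls that held. Scaling to the 75th percentile moved the median of all genes for si-A1 at 24 h from 0.06 to 0.13. The dim array's median processed intensity was 13.95, beside 20.4 to 32.2 on the other arrays of 48 h. The causes were not tested.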
